A study of Mus musculus with 2 samples.

Results

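The kappa and lambda immunoglobulin light-chain segments were examined in CH12.LX, an immortalized line of mouse B-cell lymphoma. The members are the genes present in both gene tables whose GENCODE symbol begins with Igk or Igl followed by v, j or c, for variable, joining and constant. The rule found 113 members among 43346 genes: 103 kappa variable segments, 5 kappa joining segments, the kappa constant gene Igkc, 3 lambda variable segments and the lambda constant gene Iglc2. The annotation used for symbols holds 178 genes of these names, and the 65 others matched no row and were not analysed here. These are 54 kappa variable pseudogenes, 3 kappa variable genes not annotated as pseudogenes, all 5 lambda joining segments, Iglc1, Iglc3 and Iglc4. Shares among kappa variable segments therefore cover the measured ones only. RNA sequencing was done on 2 libraries of CH12.LX, biological replicates 1 and 2 from separate biosamples of strain B10.H-2aH-4bp/Wts, on RNA longer than 200 nt with ERCC spike-ins; the labels call the assay total RNA-seq and also describe the RNA as polyA+, which could not be settled. The labels name no treatment and no second cell type, so the libraries form 1 group, no conditions were compared and no p-value was computed.

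An antibody light chain is made from a variable, a joining and a constant part. The variable and joining segments are brought together in the DNA of developing B cells by the RAG recombinase, and the joined exon is then spliced to the constant exon in the RNA. Each mature B cell usually carries 1 productive light chain, of kappa or lambda type, and in mice most B cells use kappa. Unrearranged segments and constant genes can also be transcribed as so-called germline transcripts, which RNA counts on separate segments do not tell apart from transcripts of a rearranged gene.

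The 3 members of the kappa variable subgroup numbered 10 are shown first. Igkv10-96 carried nearly all variable counts, and Igkv10-94 and Igkv10-95 are its closest relatives among the measured segments with a coding sequence. The variable exon is given 5′ to 3′ on the coding strand, on GRCm38 (the assembly also named mm10), and capitals mark the 22 positions at which the 3 segments are not identical. Igkv10-96 lies at chr6:68631963-68632260 on the minus strand, Igkv10-94 at chr6:68704508-68704805 on the minus strand, and Igkv10-95 at chr6:68680551-68680848 on the plus strand.
Igkv10-96: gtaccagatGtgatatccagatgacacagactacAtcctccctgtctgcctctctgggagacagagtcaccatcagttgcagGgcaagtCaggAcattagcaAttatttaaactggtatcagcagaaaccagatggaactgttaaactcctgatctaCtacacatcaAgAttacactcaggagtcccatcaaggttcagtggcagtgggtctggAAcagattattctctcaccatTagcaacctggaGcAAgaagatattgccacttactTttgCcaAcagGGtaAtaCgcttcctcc
Igkv10-94: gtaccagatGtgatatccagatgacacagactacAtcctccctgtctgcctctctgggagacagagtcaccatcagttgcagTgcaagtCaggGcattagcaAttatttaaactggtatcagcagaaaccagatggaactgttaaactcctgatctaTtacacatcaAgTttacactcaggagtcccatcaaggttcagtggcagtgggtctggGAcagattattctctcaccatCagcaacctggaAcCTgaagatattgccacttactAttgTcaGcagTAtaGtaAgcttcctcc
Igkv10-95: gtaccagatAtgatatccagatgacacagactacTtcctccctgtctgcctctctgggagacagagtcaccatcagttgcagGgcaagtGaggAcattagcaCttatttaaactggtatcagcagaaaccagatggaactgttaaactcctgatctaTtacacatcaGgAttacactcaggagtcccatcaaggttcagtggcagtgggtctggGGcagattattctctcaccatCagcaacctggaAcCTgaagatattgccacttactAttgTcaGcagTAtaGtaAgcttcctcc

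The libraries held 24469094 and 23586580 expected counts, which are estimated read counts per gene, and the members took 30595 and 25407 of them. This was 0.125% of replicate 1 and 0.108% of replicate 2. All 5 markers of the B lineage reached 1 TPM in both replicates, TPM being an abundance per effective length whose sum is fixed for each library. Of 12 markers of T, myeloid, erythroid and stromal cells, 0 did, their summed level was 1.12 and 0.89 TPM, and Cd3e, Thy1, Cd14 and S100a8 had 0 counts in both libraries. The highest of the 12 were Pdgfrb, with 43 and 42 counts (0.40 and 0.40 TPM), and Csf1r, with 27 and 26 (0.29 and 0.30 TPM), and Cd3d had 6 and 0. In bulk RNA, fewer cells carrying a transcript and less of it per cell cannot be told apart.

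Expression of the light-chain segments was concentrated in 3 members. Of the 113 members, 17 had a count in either library, 13 had a count in both and 8 reached 1 TPM in both. Over all 43346 genes, 25.4% reached 1 TPM in both libraries and 35.7% had a count in both. The 8 were Igkc, Iglc2, Igkv10-96, Igkv14-111, Igkv10-94, Igkv10-95, Iglv1 and Iglv3. For short segments the threshold is low in counts: a read was worth 0.385 and 0.399 TPM on Igkv10-94, so that 3 counts in each library were enough to pass.

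**Figure D1:**
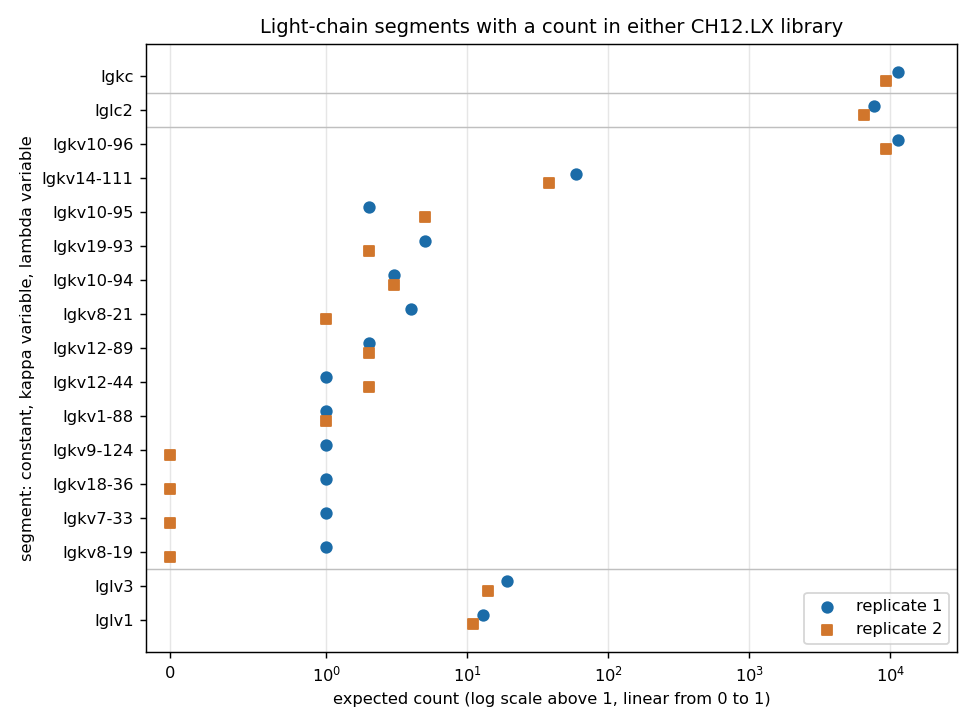
Expected counts of the 17 light-chain members with a count in either library, on an axis that is logarithmic above 1 and linear from 0 to 1. Circles are replicate 1 and squares replicate 2. Igkc, Iglc2 and Igkv10-96 lie far to the right in both libraries, none below 6538 counts, and the highest of the rest, Igkv14-111, has 59 and 38.

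Igkc encodes the constant domain shared by all kappa chains (ENSMUSG00000076609.1, chromosome 6, 70726435 to 70726966, plus strand). It held 11399 counts in replicate 1 and 9409 in replicate 2, or 5433 and 4650 TPM. By TPM it ranked 15 among all genes in each library, and by count 312 and 400. The gap between these ranks goes with its short model: the files give it 323 nt, with an effective length, the number of positions where a fragment can start, of 100.4 nt and 100.9 nt.

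Igkv10-96 is a kappa variable segment, of the kind that codes for most of a variable domain (ENSMUSG00000094420.1, chromosome 6, 68631963 to 68632442, minus strand), with a leader exon and the variable exon printed above. It held 11400 and 9381 counts, or 4386 and 3746 TPM, and ranked 22 and 24 among all genes by TPM. Its share of the counts on the 103 kappa variable segments was 99.3% in replicate 1 (95% Wilson interval 99.1 to 99.4) and 99.4% in replicate 2 (99.3 to 99.6), 99.4% ± 0.0942 (SD, n = 2). Intervals here cover counting error only and treat every read as independent. PCR copies cannot be separated from independent molecules in such reads, so the intervals may be too narrow.

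The counts of the variable and the constant segment were nearly equal in each library. Igkv10-96 stood at 1.00 times Igkc in replicate 1 and 0.997 times in replicate 2 by count, 0.999 ± 0.00217 (SD, n = 2). By TPM the ratio was 0.807 and 0.806, since the effective length of Igkv10-96, 124.3 nt and 124.9 nt, is longer than that of Igkc. Counts per full annotated length, meaning the full length of the deposited model, gave 0.931 and 0.928. The Igkc model of 323 nt is shorter than the gene span from 70726435 to 70726966. Reads lying wholly in the rest of that span could not add to its counts, so the near equality by count depends on that model. The replicates differed little on each scale, and the scale moved the ratio by more than the replicates did.

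Igkv14-111 was the only other kappa variable segment with a mean of 20 or more counts (ENSMUSG00000095771.1, chromosome 6, 68256389 to 68256869, plus strand). It held 59 and 38 counts, or 21.7 and 14.5 TPM. This was 0.514% of the kappa variable counts in replicate 1 (Wilson interval 0.399 to 0.662) and 0.403% in replicate 2 (0.294 to 0.552), and the intervals of the libraries overlap. Its level was 0.00494 and 0.00387 times that of Igkv10-96 by TPM. Its variable exon was 75.8% identical to that of Igkv10-96, and of the 304 words of 50 bases in its coding sequence 0 occurred in a transcript of another gene, and of its 323 words of 31 bases 29 did (8.98%).

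The other 11 kappa variable segments with a count held 22 counts together in replicate 1 and 16 in replicate 2, at most 5 on any segment in either library. Igkv10-95 had 2 and 5, Igkv10-94 had 3 and 3, Igkv19-93 had 5 and 2, Igkv8-21 had 4 and 1, and Igkv12-89 had 2 and 2. Igkv12-44 had 1 and 2, Igkv1-88 had 1 and 1, and Igkv9-124, Igkv18-36, Igkv7-33 and Igkv8-19 had 1 count in replicate 1 and 0 in replicate 2. At such counts no order among these segments can be read.

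The remaining 90 kappa variable segments had 0 counts in both libraries, 84 annotated as variable genes and all 6 measured pseudogenes. For the 88 of them with an effective length above 0, a count of 0 allows up to 0.968 to 2.67 TPM in replicate 1 and 1.01 to 2.77 TPM in replicate 2 (3 counts, counting error only). The other two, both pseudogenes, have an effective length of 0 and could receive no count. These are upper limits for a count of 0 and not limits of detection: Igkv1-88 was counted in both libraries at 0.34 and 0.36 TPM.

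Positions were compared next, because a variable segment on the strand opposite to the joining segments joins by inversion of the DNA between them, and one on the same strand by its deletion. The joining segments and Igkc lie on the plus strand, and Igkv10-96 on the minus strand, 2.09 Mb from Igkj1, with 75 measured variable segments between them and 27 beyond it. Of the 103 measured kappa variable segments 64 (62.1%) lie on the minus strand, and of the 9 with a count in both libraries 7 do (77.8%). Igkv14-111 and Igkv10-95 are those of the 9 on the plus strand. Igkv14-111 lies farther out, 2466 kb from Igkj1.

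**Figure D2:**
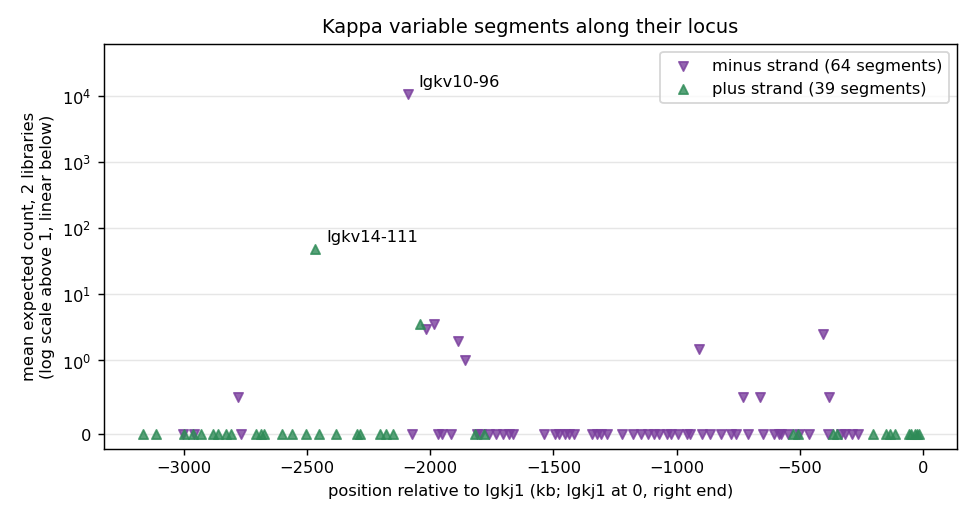
Mean expected count of each of the 103 measured kappa variable segments against its distance from Igkj1 in kb, with downward triangles for the minus strand and upward triangles for the plus strand. The count axis is logarithmic above 1. Igkv10-96 stands alone at the top at 2090 kb, Igkv14-111 follows at 2466 kb, and most segments lie at 0.

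The low counts were also read by distance from Igkv10-96. Of the 9 measured segments within 250 kb of Igkv10-96 on the side of Igkj1, 5 had a count in both libraries: Igkv10-95, Igkv10-94, Igkv19-93, Igkv12-89 and Igkv1-88, with 13 counts together in each library. Of the 5 within 250 kb on the far side 0 had any count, and of the other 88 segments 7 had a count in either library and 3 in both, namely Igkv14-111, Igkv12-44 and Igkv8-21. Within 500 kb, 5 of 18 segments on the side of Igkj1 had a count in both, with the same 13 counts in each library, against 1 of 10 on the far side, which was Igkv14-111 with 59 and 38. By number of segments the side of Igkj1 thus held more, and by counts the far side did in the wider window. Both windows were chosen after the counts were seen, so these numbers are a description with no test. These 5 differ widely in likeness to it: Igkv10-94 and Igkv10-95 are near copies of Igkv10-96, while Igkv19-93, Igkv12-89 and Igkv1-88 are 77.9%, 70.1% and 59.7% identical to it over the variable exon.

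The closest measured relatives of Igkv10-96 bear on how its reads were assigned. Over the 298 bases of the variable exon, Igkv10-94 is identical at 282 positions (94.6%) and Igkv10-95 at 279 (93.6%). The next among the measured segments with a coding sequence, Igkv9-123, is identical at 242 (81.2%). Of the 298 words of 50 bases in the coding sequence of Igkv10-96, 96 also occur in Igkv10-94 and 10 in Igkv10-95. Of its 317 words of 31 bases, 158 (49.8%) occur in another gene. Even so the files assign 11400 and 9381 counts to Igkv10-96 and at most 5 to either relative, with a posterior SD of 0.09 and 0.04 counts for Igkv10-96 and the same for Igkv10-94. The files give counts to 2 decimals, and all 17 members with a count had exactly whole values in both libraries. Whether the few counts of Igkv10-94 and Igkv10-95 are reads of Igkv10-96 was not tested.

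**Figure D3:**
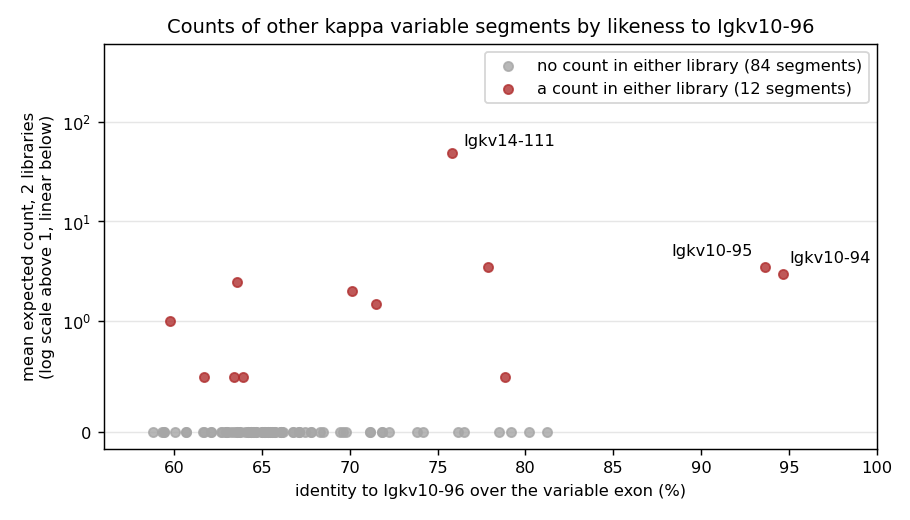
Mean expected count of the 96 other kappa variable segments with a coding sequence against their identity to Igkv10-96 over the variable exon, with the count axis logarithmic above 1. Red points have a count in either library and grey points have none. Igkv10-94 and Igkv10-95 lie apart at 94.6% and 93.6%, with 3 and 3.5 mean counts, and Igkv14-111 has the most counts at 75.8%.

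The kappa joining segments code for the last residues of the variable domain. They are printed because they could not be measured as features: each is 36 to 43 nt long in the files, which give it an effective length of 0, and all 5 have 0 counts. Which of them, if any, Igkv10-96 was joined to in CH12.LX can therefore not be read from these tables. The coding part of each is printed, so Igkj2 and Igkj5, 43 and 42 nt in the annotation, are shown with 39 and 38 bases. Capitals mark the 20 bases shared by all 5 when aligned at the 3′ end, and all lie on the plus strand of chromosome 6, Igkj1 at chr6:70722562-70722599, Igkj2 at chr6:70722916-70722954, Igkj3 at chr6:70723223-70723260, Igkj4 at chr6:70723548-70723585 and Igkj5 at chr6:70723886-70723923.
Igkj1: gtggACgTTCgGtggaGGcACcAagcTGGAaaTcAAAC
Igkj2: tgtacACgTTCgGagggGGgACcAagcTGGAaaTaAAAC
Igkj3: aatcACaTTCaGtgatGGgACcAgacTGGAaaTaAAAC
Igkj4: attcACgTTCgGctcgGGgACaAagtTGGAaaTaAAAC
Igkj5: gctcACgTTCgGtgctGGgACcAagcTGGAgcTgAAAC

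In the lambda locus the constant gene had many counts and the variable segments few. Iglc2 encodes a constant domain of lambda chains and lies on the minus strand of chromosome 16, 19198396 to 19200351, with the identifier ENSMUSG00000076937.2. It held 7683 and 6538 counts, or 959 and 850 TPM. Iglv3 held 19 and 14 counts (6.34 and 4.85 TPM), Iglv1 held 13 and 11 (4.85 and 4.26 TPM), and Iglv2 held 0 in both, which allows up to 1.15 and 1.19 TPM. The variable exons of Iglv1 and Iglv2 are 97.0% identical, with 9 mismatches, and the posterior SD of the count was 0 for each of them in both libraries. Whether reads of Iglv2 were counted on Iglv1 was not tested. All lambda variable counts together were 0.278% of the light-chain variable counts in replicate 1 (Wilson interval 0.197 to 0.392) and 0.264% in replicate 2 (0.179 to 0.390).

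Set against the measured constant gene of each locus, the variable segments of the 2 loci lay far apart. Lambda variable counts were 0.00417 and 0.00382 times those of Iglc2, while Igkv10-96 was at 1.00 and 0.997 times Igkc. By TPM the lambda ratio was 0.0117 and 0.0107. On either scale the ratio of the kappa locus was far above that of the lambda locus in both libraries, by much more than the replicates differed. Iglv1, with 13 and 11 of the lambda variable counts, lies downstream of Iglc2 at 19085017 to 19085500, on the side of Iglc3. Iglc1, Iglc3 and Iglc4 have no row. The lambda ratio therefore holds for Iglc2 only and not for the constant genes of the locus together.

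The feature that received the Iglc2 counts is a transcript of 606 nt with exons of 154 and 452 nt. Its first exon spans chromosome 16, 19200198 to 19200351, and its last 38 bases are the lambda joining segment Iglj2, still attached to the sequence upstream of it in unrearranged DNA. The second exon holds the constant part. The table gives a total for the transcript and not for each exon, so the counts do not show whether reads lay on the upstream part, which a rearranged gene lacks.

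Reads from another lambda constant gene could also fall on Iglc2. Over the coding sequence Iglc2 was 96.2% identical to Iglc3, with 11 mismatches, against 73.8% to Iglc1 and 73.3% to Iglc4, and of the 557 words of 50 bases in the Iglc2 transcript 43 occur in Iglc3, as do 106 of its 576 words of 31 bases. A stretch of 100 coding bases is printed from each, from chr16:19198753-19198852 for Iglc2 and chr16:19065582-19065681 for Iglc3, both on the minus strand, with capitals at the 6 positions that differ. Because Iglc3 has no row here, how many of the Iglc2 counts come from it was not tested.
Iglc2: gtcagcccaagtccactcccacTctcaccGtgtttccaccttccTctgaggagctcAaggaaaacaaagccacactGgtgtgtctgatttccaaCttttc
Iglc3: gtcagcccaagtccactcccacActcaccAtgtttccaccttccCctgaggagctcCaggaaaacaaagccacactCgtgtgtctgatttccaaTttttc

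The share of Igkc in the sum of Igkc and Iglc2 depended on how length was treated. Igkc made 85.0% and 84.6% of the TPM on Igkc and Iglc2, 73.6% and 73.0% of the counts per full annotated length, and 59.7% and 59.0% of the counts. Igkc was the higher of the pair on all 3 scales in both libraries. By TPM it stood at 5.57 ± 0.135 times Iglc2 and by count at 1.46 ± 0.0315 times (SD, n = 2). The 2 features are unlike: the Igkc model has 323 nt, while that of Iglc2 has 606 nt and includes an exon with Iglj2. Iglc1, Iglc3 and Iglc4 have no row, so these shares describe the 2 features and not all light-chain constant RNA.

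Light-chain constant RNA was compared with that of the heavy chain, its partner in the antibody, over the 8 heavy-chain constant genes. Igkc and Iglc2 together stood at 1.44 and 1.39 times the heavy-chain genes by TPM, but at 0.609 and 0.590 times by count per full length and 0.163 and 0.157 times by count. Which of the light-chain and heavy-chain features had the higher value thus turned on the scale. Counts are not divided by length, so the ratio by count also carries the difference in length between the features. Igkc, with an effective length of 100.4 nt out of 323 nt in replicate 1, is raised by TPM relative to a full-length scale. Igkc alone was at 1.23 and 1.17 times the heavy-chain genes by TPM, and Iglc2 alone at 0.216 and 0.214 times.

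**Figure D4:**
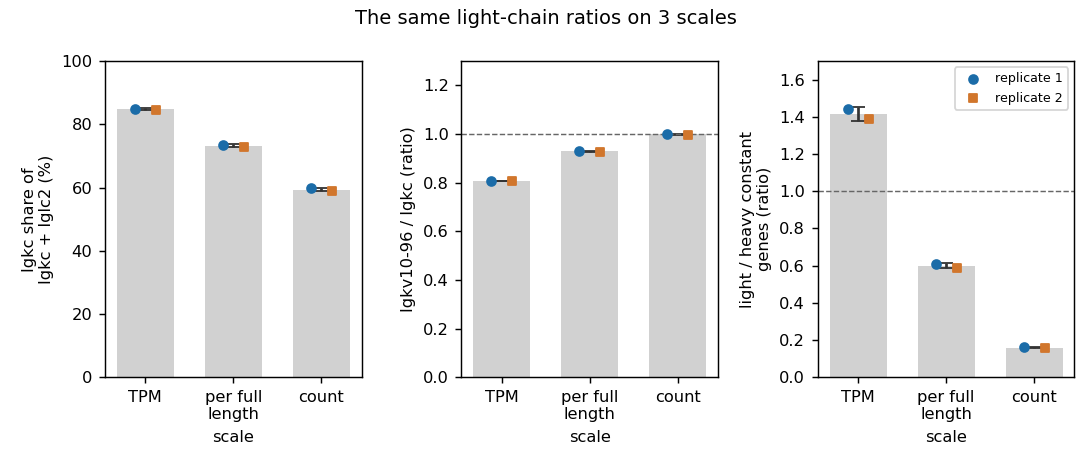
Light-chain ratios in TPM, in counts per full annotated length and in counts: the Igkc share of Igkc plus Iglc2 in percent, Igkv10-96 over Igkc, and light-chain over heavy-chain constant genes. Bars are means, error bars SD of 2 libraries, and points the libraries. The dashed line marks equal levels, and the light-to-heavy ratio lies above it only in TPM.

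Partners and regulators of the light chains were read from a list. Of the 6 partners all reached 1 TPM in both replicates, among them the heavy-chain genes Igha and Ighm and the signalling chains Cd79b, at 529 and 485 TPM, and Cd79a, at 39.8 and 35.5 TPM. Of the surrogate light chain, which stands in for the light chain in pre-B cells, Igll1 had 1 and 1 counts, Vpreb1 had 1 and 2, and Vpreb2 had 0 and 1. Vpreb3, named for its likeness to them, stood apart at 69.2 and 50.7 TPM. Of the recombinase genes, Rag1 had 1 count in each library and Rag2 had 0 in both. Dntt, which adds bases at the joints, had 0 and 1.

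All 18 factors listed as binding light-chain promoters or enhancers passed 1 TPM in each library, and their median was 49.5 TPM. Nfkb1, a subunit of the NF-kappaB factor first found at the kappa enhancer, was highest at 283 and 266 TPM. Irf4 and Spib, from families that bind light-chain enhancers together, stood at 110 and 93.5 TPM and at 131 and 107 TPM, and Pou2af1, a coactivator at the octamer of immunoglobulin promoters, at 118 and 120 TPM. Pou2f1 was lowest at 5.71 and 5.06 TPM, followed by Pou2f2 at 6.84 and 5.53 TPM. Rela stood at 8.29 and 8.4 TPM, Pax5 at 9.09 and 7.77 TPM, and Irf8 at 10.2 and 8.53 TPM. Of all genes, 25.4% passed the same threshold. The list was chosen with earlier results of these data known, so these numbers are a description with no test.

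The 4 light-chain members with a mean of 20 or more counts were lower in replicate 2 than in replicate 1, by less than 1.5-fold in TPM. Igkv14-111, at 21.7 and 14.5 TPM, came closest to that limit. Below that filter members went both ways, as with Igkv10-95 at 2 and 5 counts and Igkv19-93 at 5 and 2. Differences were taken as replicate 2 minus replicate 1 of log2(TPM + 0.5), which understates those of low genes, for the 4 members with a mean of 20 or more counts. They were -0.23 for Igkv10-96, -0.22 for Igkc, -0.17 for Iglc2 and -0.56 for Igkv14-111, with a median of -0.23, against a median of -0.0022 over all 11661 genes of that filter. Of the 4 members 0 differed over 1.5-fold, against 2.69% of all genes (1.84% for those lower in replicate 2). Among the 4722 genes with a mean of 1000 or more counts, 6.90% had a lower difference than Igkv10-96, 7.24% than Igkc and 11.4% than Iglc2. Under scaling to the ERCC spike-ins the median of all genes moved to 0.30, and relative to it the members stood at -0.21, although their own values turned positive for Igkv10-96, Igkc and Iglc2. These are differences between 2 libraries of 1 group and measure no condition.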

How the data were processed

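Both RNA libraries of CH12.LX were analysed from the deposited gene and transcript tables, made by the authors on mm10 with GENCODE annotation M4, per the file headers and the notes that accompany them. Aligner and quantification tool: not given in the sources used here. Expected counts deposited by the authors are estimated reads per feature, not normalized, with shared reads divided between features. The deposited TPM divide by effective length and scale every library to 1 common sum, and the deposited FPKM scale by length and library size. The deposited posterior SD is a score of how uncertain the assignment of reads is, and the posterior mean values served as alternatives. Per the file headers an isoform percent is given per transcript: each of the 113 members had 1 transcript, so it adds nothing here.

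Symbols, types and coordinates came from GENCODE M21 on GRCm38, matched by identifier without version, and sequences from its transcripts. Of 100 variable segments with a coding sequence, 56 had the same length in the files and 44 were shorter there. Identity was taken from global alignment, and shared words from all M21 transcripts on both strands. Levels are given per library, or as mean ± SD (n = 2), an SD that measures only the spread between these samples. The calculation of differences between replicates was tested on simulated Poisson counts with changes of known size. Such counts hold no variation between biological replicates, so the test checks the arithmetic only. Wilson intervals are at 95%, and a count of 0 was read as up to 3 counts. Tools were Python 3.11.15, scipy 1.17.1, R 4.3.3, edgeR 4.0.16 and DESeq2 1.42.0, the last pair for scaling factors only.

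The members and lists were chosen with earlier results of these data known. The named genes are all constant and joining members, variable members with a mean of 20 or more counts, lambda variable members, kappa variable members with a count in both libraries, relatives and neighbours of the highest segment, and the partner list. Members with a count in 1 library only were named after their values were seen. Counts per annotated length and the 250 and 500 kb windows were added after the data were seen. Planned searches for the promoter octamer and for recombination signals were not run here.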

Additional observations from a re-analysis of the deposited data

How the results depend on the processing

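No paired analysis was possible because the 2 libraries form 1 group. Members at 1 TPM or more, 8, were 13 at 0.1 TPM and 4 at 10 TPM, and 7 to 10 under the other alternatives. Leaving out a replicate gave 8 and 10 members, an Igkv10-96 share of 99.3% to 99.4%, a lambda share of variable counts of 0.264% to 0.278%, an Igkc share of 84.6% to 85.0%, ratios of 0.806 to 0.807 for Igkv10-96 to Igkc and 0.0107 to 0.0117 for lambda variable to Iglc2, and a light-to-heavy ratio of 1.39 to 1.44. With segments under a mean of 10 counts left out, the Igkv10-96 share was 99.5%. In TPM the lambda share of variable segments was 0.247%. In expected counts the Igkc share was 59.4%, Igkv10-96 to Igkc 0.999, lambda variable to Iglc2 0.00399 and light to heavy 0.160. In counts per annotated length, an alternative chosen after seeing the data, these were 73.3%, 0.929, 0.00673 and 0.599, so light to heavy changed sides of 1. TPM, counts per annotated length and counts differ by construction only in the length they divide by. Posterior mean TPM gave 0.0124 for lambda variable to Iglc2. On that scale Iglv2, at 0 TPM in both libraries, stood at 0.37 and 0.39, where 1 count is worth 0.382 and 0.396 TPM. Iglv1 stood at 5.06 and 4.53 against 4.85 and 4.26 TPM. Iglc2 stood at 931 and 830 against 959 and 850 TPM. The cause was not tested.

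The members' median difference between replicates was 0 with no filter on counts, where most members have 0 counts, and turned to 0.091 under ERCC scaling, with 0.093 for Igkc, 0.14 for Iglc2 and 0.088 for Igkv10-96, where the median of all genes was 0.30. The cause was not tested. Under TMM and median-of-ratios factors, other pseudocounts, a mean of 100 counts and posterior mean TPM it lay between -0.23 and -0.21. Depth limits what can be said of segments with few counts: a count of 0 allows about 1 TPM or more.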
